A study of Mus musculus with 32 samples.

Results

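The abducens nucleus is the hindbrain motor nucleus whose neurons drive the lateral rectus, the eye muscle that turns the eye outward. Albino and pigmented mouse libraries assigned to this nucleus were compared here across all genes, 4 against 4, out of 32 libraries in the study. The pigmented libraries were assigned by label and the albino ones by marker genes. The study sequenced RNA from 2 genotypes, albino B6(CG)Tyr(c-2J)/J mice, which carry a changed copy of the tyrosinase gene, and pigmented C57BL/6 mice, whose substrain the labels do not name. For each genotype it took extraocular muscle (EOM), tibialis anterior (TA, a limb muscle), oculomotor (CN3) and abducens (CN6) samples, with 4 libraries of each. RNA was extracted with an RNeasy Mini Kit, either for lipid-rich or for fibrous tissue, and no treatment, age, sex or time of collection is given. Nothing says that the libraries came from separate animals, so each p-value below measures only the spread between these libraries, which may be technical.

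The C57BL/6 side is the 4 libraries labelled C57BL/6 CN6. The albino side was chosen from the read counts and not from the tissue label, because 2 of the 4 libraries labelled albino CN6 held muscle RNA. Albino CN6 3 and albino CN6 4 had 13325 and 13007 CPM (the count scaled by the total of the library) of Ckm, the creatine kinase of muscle, and 0 and 3.70 CPM of Snap25, a protein of the nerve terminal. An albino-labelled library entered the comparison when it had more than 1000 CPM of Snap25 and more than 1 CPM of Hoxb3, a hindbrain position gene. Of 16 albino libraries, 4 met both conditions. They are the libraries labelled albino CN6 1 and albino CN6 2, and 2 that carry a limb muscle label, albino TA 1 and albino TA 2. The genotype was taken from the label throughout, and the tissue of the last 2 rests on the markers alone. Snap25 and Hoxb3 select neural tissue with hindbrain RNA and do not single out the abducens nucleus. The name albino abducens below stands for the set chosen by this rule. Library totals were 31265634 to 39829893 counts for C57BL/6 and 28261869 to 33460139 for the albino set.

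Motor nuclei of the hindbrain are laid down segment by segment under the Hox genes, a family of homeodomain transcription factors whose combination records position along the neural tube. Their motor neurons make acetylcholine and send axons directly to muscle. The noradrenaline neurons of the locus coeruleus and the serotonin neurons of the raphe lie in the same part of the brainstem and are recognised by the enzymes and transporters of their transmitters. Tyrosinase makes melanin in pigment cells of skin and eye, and albino animals are known for altered wiring of the visual pathway and for nystagmus, an involuntary movement of the eyes.

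The rule used Snap25 and Hoxb3, so their levels are described with no test. Snap25 was at 3584, 3437, 3936 and 3717 CPM in C57BL/6 CN6 1 to 4. In the albino libraries it was at 2562 CPM in CN6 1, 3492 CPM in CN6 2, 3221 CPM in TA 1 and 2879 CPM in TA 2. The lowest member therefore stood at 2562 CPM, and the highest albino library below the threshold was albino EOM 3 at 56.9 CPM. Hoxb3 was at 23.0, 28.4, 31.4 and 23.5 CPM in the C57BL/6 libraries. In the albino libraries it was at 2.61 CPM in CN6 1, 20.8 CPM in CN6 2, 21.3 CPM in TA 1 and 11.6 CPM in TA 2. Among the albino libraries rich in Snap25, the one just outside was albino CN3 2 with 0.191 CPM of Hoxb3. The remaining marker given for these samples, Chat, the enzyme that makes acetylcholine, was at 9.39 to 20.5 CPM in C57BL/6 and at 18.0 to 26.5 CPM in the albino set, so all 8 libraries held RNA of cholinergic cells. Ckm was at most 1.62 CPM in these 8 libraries.

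**Figure D1:**
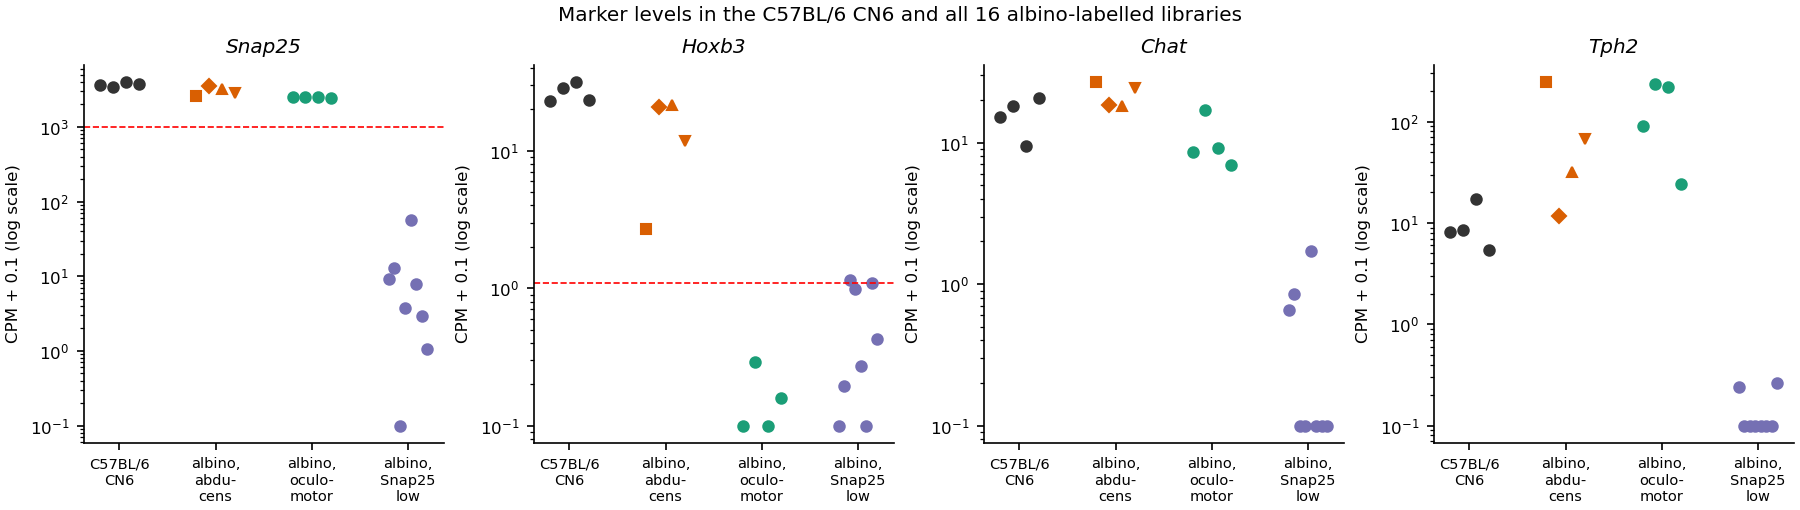
CPM plus 0.1, on a log scale, of Snap25, Hoxb3, Chat and Tph2 in the 4 C57BL/6 CN6 libraries and all 16 albino-labelled libraries, with 1 point per library and dashed red lines at the thresholds of the rule. Of the albino abducens libraries (orange), the square is the library labelled albino CN6 1, which is lowest for Hoxb3 at 2.61 CPM and highest for Tph2 at 244 CPM.

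The library labelled albino CN6 1 stood apart from the other 7. It was lowest of the 8 for all 14 Hox genes that passed the filter on low counts, and the summed level of the whole list of 18 was 8.44 CPM, against 36.0 to 82.3 CPM in the other 3 albino libraries and 82.8 to 152 CPM in C57BL/6. Hoxd3 was at 14, 19.0, 19.1 and 14.9 CPM in C57BL/6, at 0.880 CPM in albino CN6 1 and at 14.3, 13.3 and 5.92 CPM in albino CN6 2, TA 1 and TA 2. The same library had 244 CPM of Tph2, the enzyme that commits tryptophan to serotonin, and 72.5 CPM of Tcf7l2, a transcription factor strong in thalamus and midbrain. Tcf7l2 in the other albino libraries was at 9.44 to 13.4 CPM and in C57BL/6 at 8.44 to 12.2 CPM. The library labelled albino TA 1 stood apart in another way, with 7700 CPM of Ttr, the transthyretin of the choroid plexus, against 3.26 to 23.4 CPM in the other albino libraries.

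Over 15879 genes tested with edgeR's quasi-likelihood test, 19 genes (0.12%) passed an adjusted p of 0.05 (Benjamini-Hochberg). Of these, 14 (0.0882%) were higher and 5 (0.0315%) lower in the albino libraries. All 19 had no overlap between the 4 albino and 4 C57BL/6 libraries, as had 6.33% of all genes tested (3.5% with every albino library higher and 2.83% with every one lower). The median difference over all genes was 0.00 on the log2 scale. An unadjusted p under 0.05 was reached by 2025 genes (12.8%), and such counts for a list of genes are to be read against that share. It was 13.2% without albino TA 1 and 9.73% without albino CN6 1. DESeq2's Wald test called 189 of 15824 genes and limma voom 34 of 15879. Calls by these tools within a list are to be read against those counts. Of the 19, 7 are on a list of genes known to vary between C57BL/6 substrains and 3 on lists of monoamine neuron genes. These lists were drawn up with earlier results of the libraries in view, so the counts are not independent evidence. In the oculomotor libraries sorted by the same markers (C57BL/6 CN3 1 to 4 against albino CN3 1 and 2 and EOM 1 and 2), which share no library with the abducens set, 45 of 15880 genes (0.283%) passed, and 14 of the 19 were among them.

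**Figure D2:**
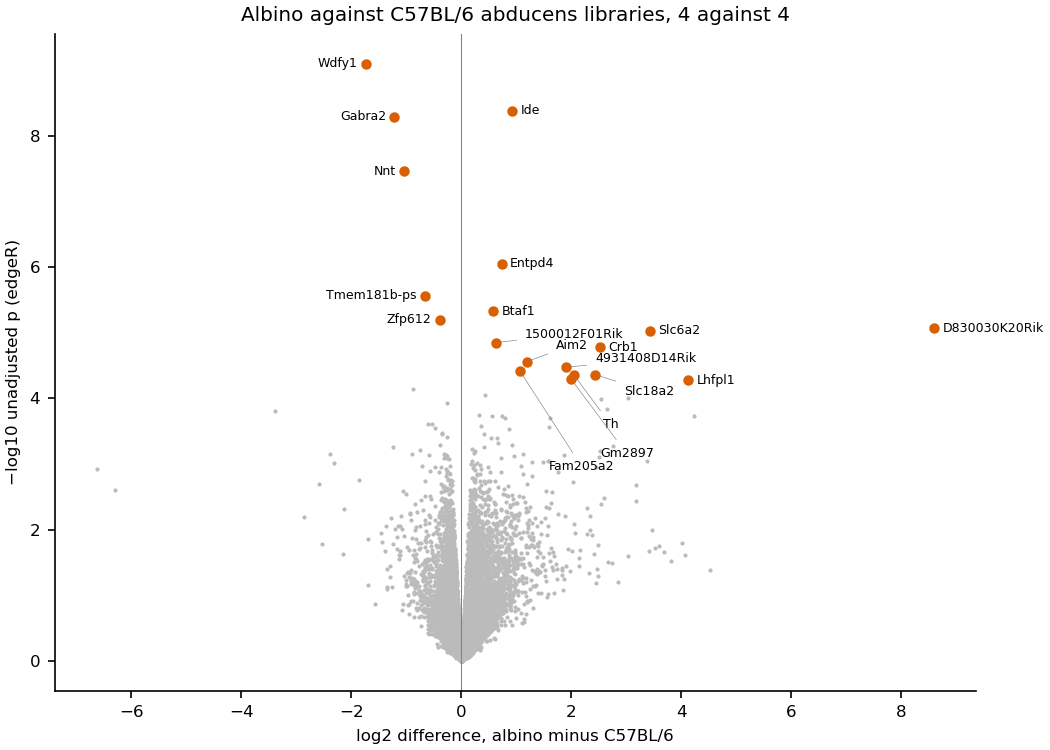
Log2 difference between albino and C57BL/6 abducens libraries (x axis) and −log10 of the unadjusted p from edgeR (y axis) for 15879 genes, with the 19 genes that passed an adjusted p of 0.05 in orange and named. Wdfy1, Gabra2 and Nnt on the lower side and Ide on the higher side lie farthest up.

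The count depended on single libraries. It was 10 without C57BL/6 CN6 1, 10 without C57BL/6 CN6 3, 7 without C57BL/6 CN6 4, 12 without albino CN6 1, 35 without albino TA 1, 29 without albino CN6 2 and 6 without albino TA 2. Those 6, Wdfy1, Gabra2, Nnt, Tmem181b-ps, Ide and Entpd4, passed whichever of the 8 libraries was left out. With only the 2 albino libraries that kept their CN6 label, 4 genes passed (Wdfy1, Gabra2, Nnt and Ide), and with only the 2 that carried a TA label, 12 passed.

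The first group of changes lay in genes at which C57BL/6 substrains are known to differ. This list of 12 genes was drawn up from that knowledge and with earlier results of these libraries in view. Neither the number of its genes called nor their direction is therefore independent evidence. Of the 10 tested members of the list, 4 were higher and 3 lower, with a median difference of 0.29 on the log2 scale. Nnt and Gabra2 both carry known lesions in C57BL/6J, in Nnt a deletion of exons and in Gabra2 a deletion in an intron that lowers its RNA, and Crb1 carries the retinal degeneration allele of C57BL/6N. Which of these alleles the libraries carry was not tested, since the counts hold no sequence.

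Nnt, the inner mitochondrial membrane enzyme that makes NADPH from NADH, was at 56.0, 54.2, 60.7 and 54.9 CPM in C57BL/6. In albino CN6 1, CN6 2, TA 1 and TA 2 it was at 25.3, 28.0, 30.9 and 26.5 CPM, below every C57BL/6 library. It fell by 1.04 on the log2 scale (SE 0.08, edgeR adjusted p = 1.4e-04). The gene lies on chromosome 13 at 119335448 to 119408997 (GENCODE on mm10, minus strand). None of the other 12 tested genes of mitochondrial NADPH supply and peroxide defence, among them Idh2, Prdx3 and Sod2, passed the test, and their differences ran from -0.17 to 0.06.

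Gabra2, the alpha-2 subunit of the GABA-A receptor, was at 51.8, 54.4, 50.6 and 61.2 CPM in C57BL/6 and at 25.1, 21.9, 24.2 and 23.4 CPM in albino CN6 1, CN6 2, TA 1 and TA 2. The groups were far apart beside their spread, with means of 54.5 ± 4.7 and 23.6 ± 1.3 CPM (SD, n = 4 each). It fell by 1.22 on the log2 scale (SE 0.07, adjusted p = 2.7e-05). It was the only one of 15 tested GABA-A subunit genes that passed in edgeR, and the median over the list was 0.10. DESeq2 called it and Gabre, the epsilon subunit, which was at 1.89 to 3.77 CPM in C57BL/6 and 3.77 to 7.07 CPM in the albino set (edgeR difference 0.88, SE 0.24, adjusted p = 0.28). Gabrq, the theta subunit, was at 14.6 to 29.0 CPM in C57BL/6 and 31.5 to 64.7 CPM in the albino set, with a difference of 1.13 (adjusted p = 0.22).

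Wdfy1, an endosomal protein with a FYVE domain and WD repeats that takes part in Toll-like receptor signalling, gave the smallest p of all genes. It was at 77.4, 91.2, 83.0 and 86.0 CPM in C57BL/6 and at 27.0, 21.1, 25.7 and 28.6 CPM in albino CN6 1, CN6 2, TA 1 and TA 2. It fell by 1.73 on the log2 scale (SE 0.09, adjusted p = 1.3e-05). In the oculomotor libraries it fell by 1.53 (SE 0.08, adjusted p = 5.8e-05).

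On chromosome 19 a run of neighbours was higher in the albino libraries. Ide, the insulin-degrading enzyme (37268743 to 37337852, minus strand), was at 70.4, 73.4, 71.4 and 73.3 CPM in C57BL/6 and at 131, 131, 152 and 138 CPM in albino CN6 1, CN6 2, TA 1 and TA 2. The C57BL/6 libraries lay close together, and every albino library was far above them. It rose by 0.92 on the log2 scale (SE 0.05, adjusted p = 2.7e-05). Btaf1, which removes the TATA-binding protein from DNA, lies 255991 bases away (36926079 to 37012752, plus strand). It was at 33.5, 38.3, 37.9 and 38.6 CPM in C57BL/6 and 51.0, 54.5, 59.8 and 57.3 CPM in the same order of albino libraries, and rose by 0.58 (SE 0.07, adjusted p = 0.011). Without albino TA 2 the value for Btaf1 was 0.56 and its adjusted p 0.059. Fgfbp3, which binds fibroblast growth factors and lies beside Btaf1, had 3.17 to 4.27 CPM in C57BL/6 and 5.62 to 6.33 CPM in the albino set, a difference of 0.73 that did not pass (adjusted p = 0.098). It was named after its values were seen.

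Cpeb3, an RNA-binding protein of synapses, lies between Btaf1 and Ide and differed by 0.00 (SE 0.07, adjusted p = 0.98), with means of 127 CPM in both groups. Genes on either side of the run did not pass either. Tnks2, the next tested gene before Fgfbp3, differed by -0.06 and Kif11, the next after Ide, by -0.19. Extra copies of the stretch that holds Ide and Fgfbp3 are known in some C57BL/6J stocks. Copy number was not measured here.

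Entpd4, a nucleotidase of the Golgi and lysosomes, was at 62.1, 54.0, 56.6 and 57.7 CPM in C57BL/6 and at 84.9, 95.8, 104 and 102 CPM in albino CN6 1, CN6 2, TA 1 and TA 2. It rose by 0.74 on the log2 scale (SE 0.07, adjusted p = 0.0028). A near-identical copy, Entpd4b, exists, so the level of either depends on how shared reads were counted. Crb1, a cell polarity protein of the retina and brain, was low in all libraries. It was at 0.608, 0.867, 0.274 and 0.502 CPM in C57BL/6 and at 4.04, 2.18, 2.48 and 4.46 CPM in albino CN6 1, CN6 2, TA 1 and TA 2, and rose by 2.53 (SE 0.35, adjusted p = 0.022). The call for Crb1 was lost without C57BL/6 CN6 1 (2.57, adjusted p = 0.11), C57BL/6 CN6 3 (2.31, 0.060), C57BL/6 CN6 4 (2.48, 0.16), albino CN6 1 (2.42, 0.055) or albino TA 2 (2.35, 0.081). Among the members that did not pass was Cyfip2, which regulates actin at synapses, with a difference of -0.12 (adjusted p = 0.36).

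Outside that list and the lists of monoamine neuron genes, 4 genes with a gene name and at least 1 CPM on average passed. Tmem181b-ps, a transcribed pseudogene on chromosome 17, was at 69.3 to 72.9 CPM in C57BL/6 and at 51.2, 38.8, 42.6 and 46.6 CPM in albino CN6 1, CN6 2, TA 1 and TA 2. It fell by 0.67 on the log2 scale (SE 0.08, adjusted p = 0.0072). Its neighbours Dynlt1b and Tmem181c-ps differed by -0.88 (adjusted p = 0.058) and -0.53 (0.12), with no overlap between the groups. These genes have near-identical copies nearby on chromosome 17, Dynlt1a and Tmem181a, whose libraries overlapped, so reads may be split among them. Zfp612, a zinc finger gene, was at 148, 154, 159 and 160 CPM in C57BL/6 and at 115, 125, 118 and 121 CPM in the albino libraries in the same order. It fell by 0.38 (SE 0.05, adjusted p = 0.013), a call lost without C57BL/6 CN6 3 (-0.36, adjusted p = 0.082), C57BL/6 CN6 4 (-0.37, 0.080) or albino TA 2 (-0.39, 0.080).

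Aim2, a sensor of DNA in the cytosol, was at 1.76, 2.93, 2.08 and 2.13 CPM in C57BL/6 and at 5.34, 5.17, 4.35 and 5.62 CPM in albino CN6 1, CN6 2, TA 1 and TA 2. It rose by 1.19 on the log2 scale (SE 0.17, adjusted p = 0.034). Leaving out any library other than C57BL/6 CN6 2 or albino TA 1 ended the call, with values of 1.10 to 1.18 and adjusted p of 0.056 without albino CN6 2, 0.083 without albino CN6 1, 0.11 without C57BL/6 CN6 1, 0.13 without albino TA 2, and 0.16 without C57BL/6 CN6 3 or 4. Fam205a2, which has near-identical copies, was at 2.17 to 3.59 CPM in C57BL/6 and 6.09 to 7.22 CPM in the albino set, and rose by 1.06 (SE 0.16, adjusted p = 0.041). Its call held only when albino TA 1 was the library left out, and otherwise the values were 0.94 to 1.14 with adjusted p of 0.055 without C57BL/6 CN6 1, 0.062 without C57BL/6 CN6 2, 0.063 without albino CN6 2, 0.076 without albino CN6 1, 0.15 without albino TA 2, and 0.16 without C57BL/6 CN6 3 or 4.

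The other 5 genes that passed are model names or low in all libraries and are named after their values were seen. They are D830030K20Rik, 1500012F01Rik, 4931408D14Rik, Gm2897 and Lhfpl1, and all 5 were higher in the albino libraries. D830030K20Rik had 0 counts in the 4 C57BL/6 libraries and 177 in the albino set, at least 71.1-fold higher against a floor of 3 counts over the group. Gm2897 lies 131648 bases from it on chromosome 14, in a stretch of near-identical genes. It was at 0.251 to 0.608 CPM in C57BL/6 and 1.43 to 1.94 CPM in the albino set. Lhfpl1, on the X chromosome, was at 0.0502 to 0.102 CPM in C57BL/6 and 0.538 to 2.59 CPM in the albino set, with albino CN6 1 and TA 2 the highest. The model gene 1500012F01Rik was at 20.5 to 23.2 CPM and 30.1 to 37.7 CPM, and 4931408D14Rik at 0.306 to 0.657 CPM and 1.5 to 2.11 CPM.

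**Figure D3:**
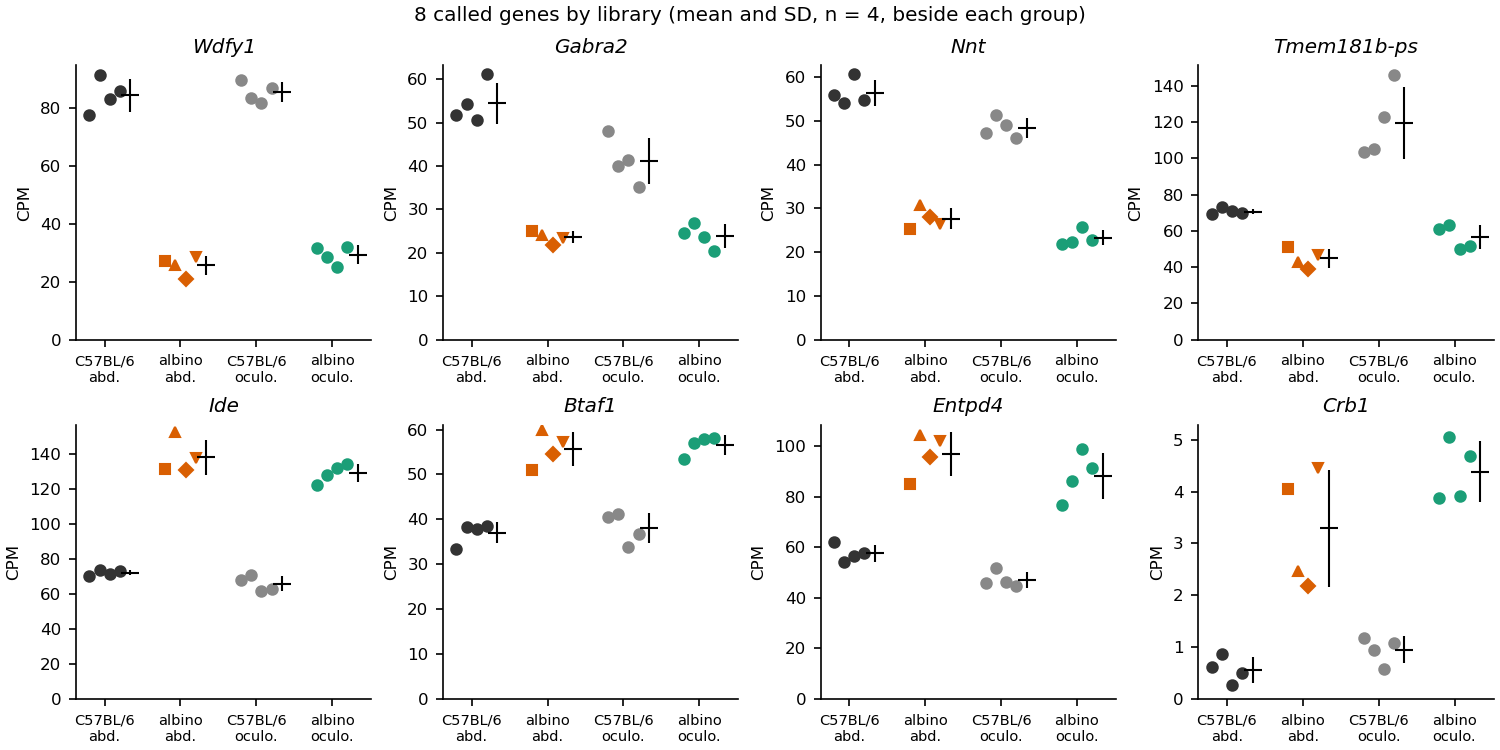
CPM of 8 genes that passed the test in the abducens libraries, 1 point per library, for C57BL/6 and albino abducens (abd.) and oculomotor (oculo.) libraries, with the mean and SD (n = 4) as a black bar beside each group. The y axes start at 0, the orange symbols are the 4 albino abducens libraries as in the plot of markers, and no albino point of these genes overlaps a C57BL/6 point of the same nucleus.

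Of the 19 genes, 14 were also called in the oculomotor libraries, and 0 of the 19 passed a test of the difference between the nuclei (edgeR interaction test over 16342 genes). The abducens minus oculomotor value was 0.01 for Nnt (SE 0.10, adjusted p = 0.99), -0.44 for Gabra2 (SE 0.14, 0.75), -0.05 for Ide (SE 0.08, 0.92), -0.20 for Wdfy1 (SE 0.12, 0.82) and 0.40 for Tmem181b-ps (SE 0.15, 0.76). For Gabra2 the fall in the oculomotor libraries was 0.77 on the log2 scale (SE 0.11, adjusted p = 0.022). Tmem181b-ps fell by 1.07 there (adjusted p = 0.0039). The genes not called there were Slc6a2, Slc18a2, Th, Gm2897 and Lhfpl1. In the oculomotor libraries Slc6a2 differed by 4.46 (SE 1.58, edgeR adjusted p = 0.22), Slc18a2 by 2.01 (0.15), Th by 0.75 (0.54) and Gm2897 by 1.73 (0.054). For Slc6a2, albino CN3 2 was at 21.7 CPM and every other oculomotor library at most at 0.624 CPM. The difference of Lhfpl1 was 4.13 in the abducens libraries and 0.29 in the oculomotor libraries (adjusted p = 0.89), and the value between the nuclei was 3.85 (adjusted p = 0.74). A p that misses the threshold does not show that the nuclei are alike.

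The second group of changes was in genes of noradrenaline neurons, which were higher in the albino libraries. Of the 8 tested genes on a list of catecholamine synthesis and transport, 3 passed as higher (Slc6a2, Slc18a2 and Th) and 0 as lower. All 8 had a positive difference, 7 at an unadjusted p under 0.05, with a median of 2.09. DESeq2 called 5, adding Dbh and Cyb561, and limma voom 4, all higher. In bulk samples, more cells of a type and more RNA per cell cannot be told apart. The summed level of the list was 128 to 202 CPM in C57BL/6 and 717, 296, 358 and 604 CPM in albino CN6 1, CN6 2, TA 1 and TA 2.

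Slc6a2, the noradrenaline transporter, was at 9.24, 18.8, 3.91 and 9.21 CPM in C57BL/6. It was at 145, 66.1, 67.0 and 167 CPM in albino CN6 1, CN6 2, TA 1 and TA 2, so the lowest albino library exceeded the highest C57BL/6 library. It rose by 3.42 on the log2 scale (SE 0.44, adjusted p = 0.015). Slc18a2, which loads monoamines into vesicles, was at 18.0, 25.6, 20.9 and 17.6 CPM in C57BL/6 and at 201, 52.7, 63.4 and 129 CPM in the albino libraries in the same order. It rose by 2.43 (SE 0.37, adjusted p = 0.041). Th, tyrosine hydroxylase, the first enzyme of catecholamine synthesis, was at 7.58, 10.7, 4.46 and 5.55 CPM in C57BL/6 and at 41.5, 18.4, 20.1 and 37.3 CPM in the albino libraries. It rose by 2.04 (SE 0.31, adjusted p = 0.041).

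Dbh, which turns dopamine into noradrenaline, was likewise highest in albino CN6 1 and TA 2 and did not pass. It was at 12.3, 24.4, 4.05 and 7.61 CPM in C57BL/6 and at 99.9, 50.1, 47.9 and 105 CPM in albino CN6 1, CN6 2, TA 1 and TA 2, a difference of 2.64 (SE 0.46, adjusted p = 0.093). Its adjusted p was 0.023 without C57BL/6 CN6 2 and 0.032 without albino TA 1. Slc6a3, the dopamine transporter, was at 5.93 CPM in albino CN6 1 and at most 0.749 CPM in the other 7 libraries. Pnmt, the enzyme of adrenaline synthesis, was at most 0.255 CPM in all 8 and was not tested.

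Albino CN6 1 and TA 2 were the highest libraries for Slc6a2, Slc18a2, Th and Dbh, and they also had the lowest summed Hox levels, at 8.44 and 36.0 CPM. The part of tissue position in these differences was not tested. Without albino CN6 1 the differences were 3.27 for Slc6a2 and 1.98 for Slc18a2 (adjusted p = 0.026 for both), while that for Th was 1.83 and no longer passed (adjusted p = 0.081). The call for Slc6a2 was lost without C57BL/6 CN6 1 (3.38, adjusted p = 0.11), C57BL/6 CN6 4 (3.38, 0.13) or albino TA 2 (3.17, 0.059). That for Th was also lost without C57BL/6 CN6 1 (2.08, 0.18), C57BL/6 CN6 3 (1.89, 0.16), C57BL/6 CN6 4 (1.95, 0.22) or albino TA 2 (1.91, 0.14). That for Slc18a2 was lost without any single C57BL/6 library (2.36 to 2.55, adjusted p = 0.0996 to 0.22) or albino TA 2 (2.35, 0.14). In 1 fit over all 16 brainstem libraries the values were 3.43, 2.43 and 2.04 for Slc6a2, Slc18a2 and Th, with adjusted p of 0.18, 0.11 and 0.20.

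Because these genes moved together, the promoters of 4 of them (Th, Dbh, Slc18a2 and Slc6a2) were looked up in RefSeq (GRCm38.p6), as 250 bases before the start of transcription to 50 after it. A window was found for 3 of the 4, all but Slc6a2. They were searched on both strands for TGACGTCA, the cAMP response element, which reads the same on both strands, and for TAATTG, a core bound by homeodomain proteins such as Phox2a, with CAATTA as its reverse. Matches are in capitals, and the motifs do not overlap. Positions count bases before the start.
Th, chr7:142899946-142900245, minus strand: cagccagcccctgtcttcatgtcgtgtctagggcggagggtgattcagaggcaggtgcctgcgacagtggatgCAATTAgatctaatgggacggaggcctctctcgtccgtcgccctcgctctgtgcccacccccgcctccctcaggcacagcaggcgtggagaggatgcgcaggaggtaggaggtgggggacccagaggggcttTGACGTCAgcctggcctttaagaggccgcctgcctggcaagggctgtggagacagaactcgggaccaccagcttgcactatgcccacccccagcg
Dbh, chr2:27165257-27165556, plus strand: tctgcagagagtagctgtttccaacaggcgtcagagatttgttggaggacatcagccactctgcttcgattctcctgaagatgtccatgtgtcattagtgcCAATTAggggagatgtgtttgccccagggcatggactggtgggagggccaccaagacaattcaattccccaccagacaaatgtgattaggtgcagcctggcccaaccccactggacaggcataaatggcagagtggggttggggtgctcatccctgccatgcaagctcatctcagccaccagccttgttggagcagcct
Slc18a2, chr19:59260628-59260927, plus strand: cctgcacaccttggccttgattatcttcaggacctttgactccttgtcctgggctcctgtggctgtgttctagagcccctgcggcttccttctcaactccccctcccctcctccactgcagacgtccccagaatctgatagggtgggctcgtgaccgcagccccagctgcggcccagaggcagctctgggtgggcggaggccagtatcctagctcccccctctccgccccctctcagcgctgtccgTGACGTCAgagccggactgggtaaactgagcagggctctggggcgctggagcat

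The Th window held TGACGTCA with its first base 45 bases before the start and CAATTA 177 bases before it. The Dbh window held CAATTA with its first base 149 bases before the start. The Slc18a2 window held TGACGTCA with its first base 4 bases before the start, so this match runs across the start. Of 32851 windows of the same length, 1.79% held TGACGTCA and 8.0% held TAATTG on either strand. A match describes the letters of the window, and binding was not measured. Phox2a, a homeodomain factor of noradrenaline and cranial motor neurons, was at 0.438 to 0.83 CPM in C57BL/6 and 1.13 to 3.27 CPM in the albino set (difference 1.57, SE 0.35, adjusted p = 0.19).

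**Figure D4:**
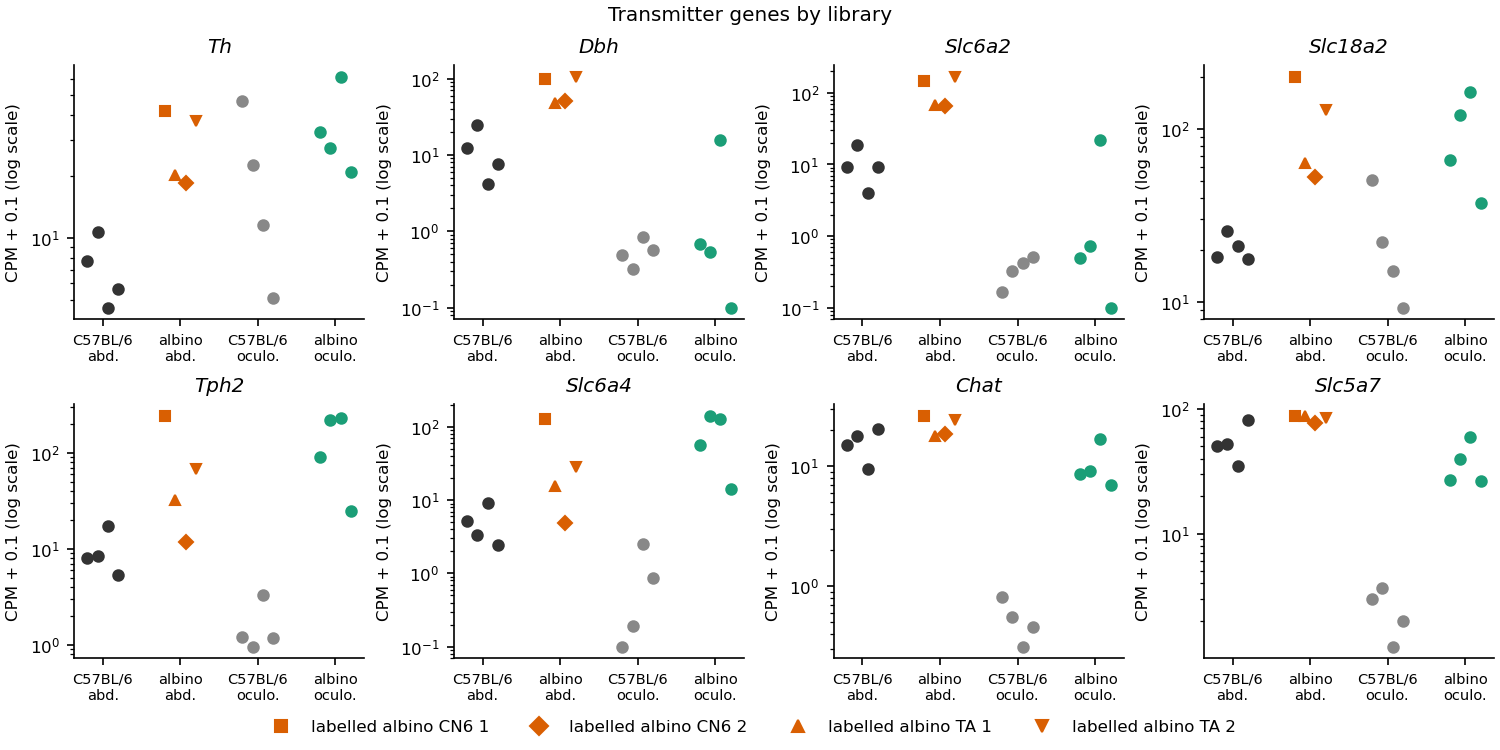
CPM plus 0.1, on a log scale, of 4 catecholamine genes, 2 serotonin genes and 2 acetylcholine genes in each abducens (abd.) and oculomotor (oculo.) library, with 1 symbol for each of the 4 albino abducens libraries. The albino libraries lie above the C57BL/6 libraries for Th, Dbh, Slc6a2 and Slc18a2 in the abducens set, while for Tph2 the library labelled albino CN6 2, at 11.5 CPM, lies among them.

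The defining serotonin genes Tph2, Slc6a4 and Fev were highest of the 8 abducens libraries in albino CN6 1 and TA 2 and did not pass between the genotypes there. Of 11 tested genes, 1 passed in edgeR, Slc18a2, which the catecholamine list also holds. All 11 had a positive difference, 9 at an unadjusted p under 0.05, and the median was 1.24. DESeq2 called 4 of the 11 (Fev, Gch1, Slc18a2 and Tph2) and limma voom 1. Tph2 was at 8.0, 8.41, 17.1 and 5.30 CPM in C57BL/6 and at 244, 11.5, 32.0 and 67.7 CPM in albino CN6 1, CN6 2, TA 1 and TA 2. The groups overlapped, and the difference was 3.18 (SE 0.79, adjusted p = 0.24). Slc6a4, the serotonin transporter, was at 2.33 to 8.98 CPM in C57BL/6 and at 130, 4.72, 15.3 and 28.5 CPM in the same order of albino libraries (3.17, SE 0.86, adjusted p = 0.28). Without albino CN6 1 the differences were 1.92 for Tph2 (edgeR adjusted p = 0.41) and 1.70 for Slc6a4 (0.43). The median over the serotonin list was then 0.80, with all 11 positive and 7 at an unadjusted p under 0.05. Fev, the transcription factor of serotonin neurons, was at most 0.493 CPM in C57BL/6 and at 4.82, 0.418, 0.991 and 1.57 CPM in the albino libraries. The order of the 4 albino libraries was the same for all 3 genes. In the oculomotor set, Tph2 and Slc6a4 passed, with differences of 6.50 (SE 0.77, edgeR adjusted p = 0.0065) and 6.69 (SE 0.95, 0.020). Fev did not pass there (3.32, 0.073). Tph2 was at 0.859 to 3.23 CPM in C57BL/6 CN3 and at 24.4 to 233 CPM in the albino oculomotor libraries.

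Genes of the motor neurons themselves did not pass the test. Of 15 tested cholinergic motor neuron genes, 0 were called (edgeR), 5 had an unadjusted p under 0.05, all higher, and the median was 0.29. DESeq2 and limma voom called 0 as well. Chat was at 15.1, 17.9, 9.39 and 20.5 CPM in C57BL/6 and at 26.5, 18.4, 18.0 and 24.3 CPM in albino CN6 1, CN6 2, TA 1 and TA 2, with overlap and a difference of 0.46 (SE 0.21, adjusted p = 0.39). Slc5a7, which takes up choline for acetylcholine, was at 50.5, 51.9, 34.5 and 81.2 CPM in C57BL/6 and at 88.3, 76.4, 88.0 and 83.8 CPM in the albino libraries (0.61, SE 0.20, adjusted p = 0.31). The vesicular acetylcholine transporter Slc18a3 was at 6.90 to 19.2 CPM in C57BL/6 and 16.5 to 18.0 CPM in the albino set. C57BL/6 CN6 3 was the lowest of the 8 for Chat, Slc5a7 and Slc18a3.

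Chodl, a membrane lectin of fast motor neurons, was at 5.17 to 15.6 CPM in C57BL/6 and at 15.9 to 18.8 CPM in the albino set, with no overlap and a difference of 0.79 (SE 0.25, adjusted p = 0.31). Calca, which encodes the peptide CGRP of motor neurons, was at 4.15 to 11.3 CPM in C57BL/6 and 11.7 to 17.5 CPM in the albino set (0.89, SE 0.28, adjusted p = 0.30). The motor neuron transcription factor Isl1 was at 0.663 to 2.03 CPM and 1.43 to 2.65 CPM. Prph, the filament peripherin of neurons with peripheral axons, was at 13.6 to 27.4 CPM and 20.8 to 28.9 CPM. Mnx1 and Isl2 were at most 0.179 CPM in all 8 libraries and were not tested.

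Here the 2 sets of libraries differed. In the interaction test, 5 of 16342 genes (0.0306%) passed, all with a lower albino difference in the abducens than in the oculomotor libraries. They were Chat at -4.13 (SE 0.46, adjusted p = 0.0012), Slc18a3 at -5.35 (SE 0.61, 0.0012), Slc5a7 at -3.38 (SE 0.44, 0.0033), Cartpt at -3.40 (SE 0.44, 0.0033) and Klhl14 at -1.47 (SE 0.24, 0.049). Chat in the oculomotor set was at 0.212 to 0.717 CPM in C57BL/6 CN3 and at 6.86 to 16.7 CPM in the albino libraries, a difference of 4.59 (SE 0.39), against 0.46 in the abducens set. Cartpt, a peptide of midbrain neurons beside the oculomotor nucleus, was at 9.35 to 33.7 CPM in C57BL/6 CN3 and 112 to 130 CPM in the albino oculomotor libraries, and at 5.09 to 9.81 and 2.28 to 5.02 CPM in the abducens set. For Chat, Slc18a3 and Slc5a7 the albino difference was positive in both sets. The C57BL/6 CN3 libraries, which were taken as labelled, held little Chat RNA. How well they cover the oculomotor nucleus was not tested. With limma voom and sample quality weights, Cartpt alone passed. The value for Klhl14 missed the threshold when any 1 of 13 of the 16 libraries was left out (-1.54 to -1.32, adjusted p = 0.057 to 0.17); it passed without C57BL/6 CN3 1, C57BL/6 CN3 2 or albino CN3 2.

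Transcription factors that mark position varied widely among the 4 albino libraries. Of 25 tested transcription factors of midbrain and hindbrain, 0 were called by edgeR and 12 had an unadjusted p under 0.05 (9 higher and 3 lower). DESeq2 called 4, all higher (En2, Lmx1a, Pax7 and Phox2a), and limma voom 0. Pax7, a factor of dorsal midbrain and spinal cord, was at 0.192, 0.561, 0.110 and 0.0502 CPM in C57BL/6 and at 6.45, 1.14, 1.77 and 8.24 CPM in albino CN6 1, CN6 2, TA 1 and TA 2. Its difference was 4.22 (SE 0.76, adjusted p = 0.098), and its adjusted p was 0.031 without albino TA 1 and 0.030 without albino CN6 2. En2, a factor of the border of midbrain and hindbrain, was at 2.03 to 2.56 CPM in C57BL/6 and at 11.5, 3.41, 6.09 and 6.54 CPM in the albino libraries (1.59, SE 0.30, adjusted p = 0.12, and 0.018 without albino CN6 2). Pax2 was at 15.8 to 21.6 CPM in C57BL/6 and at 4.69, 17.5, 15 and 10.3 CPM in the albino libraries, with albino CN6 1 again the lowest.

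Among the Hox genes, described without a test, Hoxb5 and Hoxc4 varied within C57BL/6 too. Hoxb5 was at 5.09, 24.6, 9.03 and 1.76 CPM in C57BL/6 and at 0.0652, 0.956, 4.85 and 1.19 CPM in albino CN6 1, CN6 2, TA 1 and TA 2. Hoxc4 was at 7.39, 14.2, 11.5 and 6.88 CPM in C57BL/6 and at 0.261, 4.27, 5.91 and 1.91 CPM in the albino libraries. Hoxa4 had a narrower range in C57BL/6, at 8.22, 10.3, 10.2 and 7.31 CPM, and was at 0.912, 5.08, 7.29 and 3.47 CPM in the albino libraries. C57BL/6 CN6 2 was the highest of the 8 for Hoxb5 and Hoxc4, and every albino library was lower than every C57BL/6 library for Hoxc4 and Hoxa4.

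Inhibitory transmission genes gave 0 calls in 13 tested by edgeR, DESeq2 or limma voom (5 with an unadjusted p under 0.05). Slc6a5, the glycine transporter of glycinergic neurons, was at 149, 121, 153 and 150 CPM in C57BL/6 and at 32.7, 128, 120 and 83.3 CPM in albino CN6 1, CN6 2, TA 1 and TA 2. Glra1, the adult glycine receptor subunit, was at 52.8 to 59.9 CPM in C57BL/6 and at 16.7, 37.2, 35.0 and 47.5 CPM in the albino libraries, with no overlap and a difference of -0.74 (SE 0.23, adjusted p = 0.30). Glra2, the subunit that predominates in early life, was at 14.4 to 17.5 CPM in C57BL/6 and at 43.3, 17.7, 22.4 and 28.8 CPM in the albino libraries (0.81, SE 0.22, adjusted p = 0.28). Without albino CN6 1 the differences were -0.52 for Glra1 (adjusted p = 0.19) and 0.52 for Glra2 (0.41). Gad1, which makes GABA, was at 292 to 371 CPM and 365 to 549 CPM. Albino CN6 1 and TA 2 were the highest of the 8 for Gad1, Gad2 and Glra2.

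Other cell types were compared by their marker lists, and none of those given here held a gene called by edgeR. Choroid plexus markers, 12 genes of the tissue that makes cerebrospinal fluid, summed to 646 to 916 CPM in C57BL/6, to 508, 601 and 584 CPM in albino CN6 1, CN6 2 and TA 2, and to 13417 CPM in albino TA 1. All 11 tested had a positive difference (9 at an unadjusted p under 0.05), with a median of 3.59. Without albino TA 1, 9 of 12 tested had a negative difference, 0 were called by edgeR, and the median was -0.45. An unadjusted p under 0.05 was then reached by 5 of them, beside 13.2% of all genes. Kl was at 304 CPM and Folr1 at 50.1 CPM in it, against at most 5.0 and 0.817 CPM in the other 3. Cerebellar markers were also highest in albino TA 1, where Cbln3 was at 26.3 CPM and Gabra6 at 10.1 CPM, against at most 4.89 and 1.5 CPM in the other albino libraries. Of 12 tested cerebellar genes, 11 had a positive difference, 6 at an unadjusted p under 0.05, and 7 were positive when albino TA 1 was left out. DESeq2 called 1 of them higher, Ppp1r17. Without albino TA 1, all 14 called genes with a gene name still passed, at 0.931 to 1.08 times their log2 differences.

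Myelin genes of oligodendrocytes gave 0 calls in 15 tested, with 14 negative differences, 6 at an unadjusted p under 0.05 and a median of -0.18. DESeq2 called 2 of them lower, Cldn11 and Mobp. Cldn11, a tight junction protein of myelin, was at 206 to 230 CPM in C57BL/6 and 173 to 187 CPM in the albino set (-0.26, SE 0.05, adjusted p = 0.14). Microglial, endothelial and astrocyte genes had medians of -0.01, -0.01 and -0.08 over 14, 14 and 12 tested genes, with 0 calls by any of the 3 tools and 0, 1 and 5 genes at an unadjusted p under 0.05. Skeletal muscle RNA was at the level of traces in both groups, summing to 5.79 to 21.3 CPM in C57BL/6 and 2.90 to 5.28 CPM in the albino set over 9 genes. All 6 tested muscle genes had a negative difference, 5 at an unadjusted p under 0.05, with a median of -2.22. DESeq2 called 3 of them lower, Atp2a1, Myh4 and Tnnt3. Myh4, the fastest myosin heavy chain, was at 0.480, 1.89, 3.72 and 2.99 CPM in C57BL/6 and at 0.0897 to 0.306 CPM in the albino set (-3.40, SE 0.60, adjusted p = 0.096). Its adjusted p was 0.011 without C57BL/6 CN6 1.

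**Figure D5:**
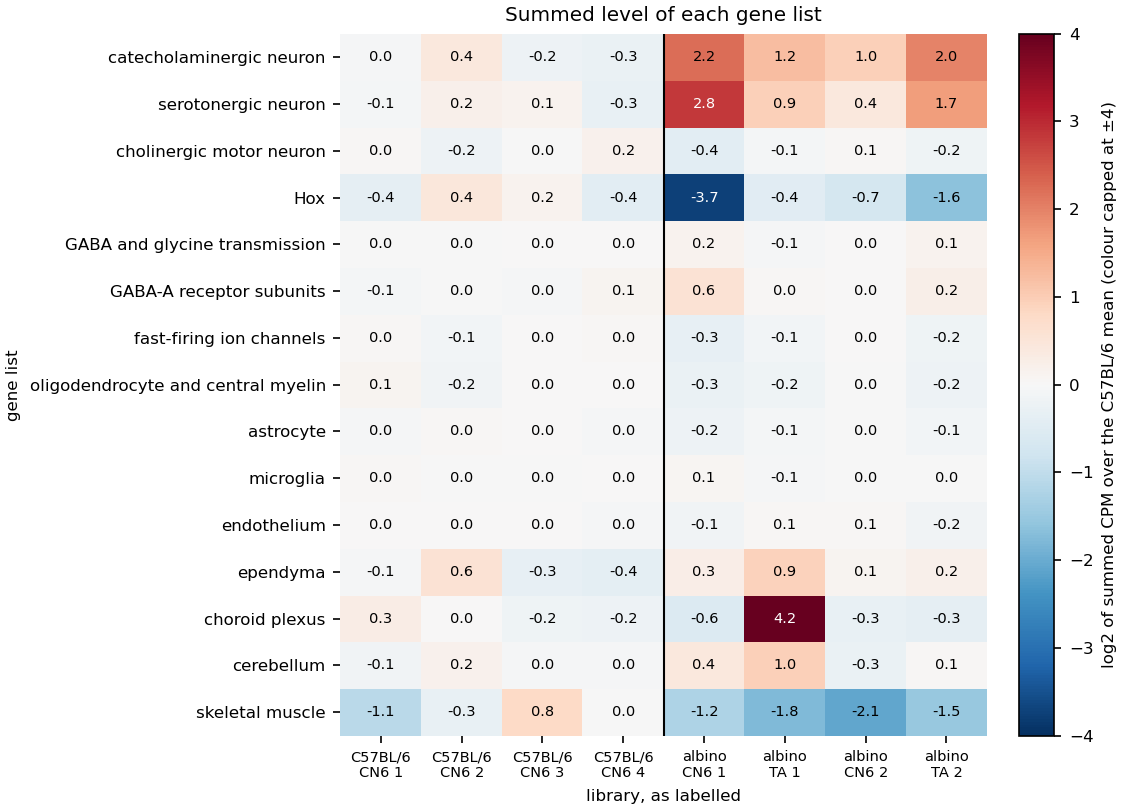
Log2 of the summed CPM of 15 gene lists in each of the 8 libraries, relative to the mean of the 4 C57BL/6 libraries, with red for higher and blue for lower and the colour capped at 4 in either direction. The library labelled albino CN6 1 is lowest for Hox genes and highest for serotonergic genes, and the library labelled albino TA 1 alone is high for choroid plexus.

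Genes of albinism itself gave little to compare in this tissue. Tyr was at most 0.128 CPM in the 8 libraries and was not tested, so the counts do not check the genotype label. Of 17 pigment cell genes 10 were tested, and 0 were called by edgeR, DESeq2 or limma voom (1 at an unadjusted p under 0.05). The Y-linked gene Ddx3y was at 58.7 to 63.7 CPM in C57BL/6 and 75.6 to 92.5 CPM in the albino set (0.43, SE 0.07, adjusted p = 0.067), and Xist was at most 0.239 CPM, so all 8 libraries read as male. Of 14 tested genes of cranial nerve misrouting and nystagmus, 0 were called by edgeR and 1 had an unadjusted p under 0.05, Phox2a, which DESeq2 called. Kif21a, which is mutated in an inherited fibrosis of the eye muscles, differed by -0.01 (adjusted p = 0.97). Frmd7, a gene of inherited nystagmus, was at 2.5 to 3.94 CPM in C57BL/6 and 2.62 to 3.17 CPM in the albino set.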

How the data were processed

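The authors deposited raw read counts per gene symbol for 24421 genes. Per the submitters' processing notes, the tools were Trimmomatic 0.33, FastQC, HISAT2 2.1.0, featureCounts and edgeR, with build mm10. Annotation, strand setting and filters are not given in the sources used here, so a gene and its antisense partner cannot be told apart. No batch or run date is given in the labels. Counts were fitted in R 4.3.3 with edgeR 4.0.16 (filterByExpr, TMM scaling, quasi-likelihood F test, 2-sided, Benjamini-Hochberg over all genes tested, threshold 0.05), which was tested on simulated data. CPM values use the total counts of each library, and differences are albino minus C57BL/6 with a standard error (SE). Alternatives used DESeq2 1.42.0 and limma 3.58.1. The members, gene lists and tests were chosen with earlier results of these data known. The genes named by rule are a fixed set (Tyr, Nnt, Gabra2, Snap25, Hoxb3, Chat and Tph2). They also include, per direction, up to 12 called genes that bear a gene name and reach 1 CPM on average. Added are up to 4 from each list with the smallest adjusted p, and genes that passed the interaction test. Other genes in the text fall outside this rule. Those chosen after their values were seen include Ttr, Enpp2, Folr1, Cbln3, Tcf7l2, Slc6a3, Slc6a5, Isl1, Prph, Hoxa4, Hoxb5, Hoxc4 and Hoxd3. Positions come from GENCODE on mm10, which holds 17 of the 19 called symbols. No 2 libraries agreed within sampling noise. Some members of the gene lists are not reported here by name.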

Additional observations from a re-analysis of the deposited data

Results flagged for a closer look

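In 120 groups of 4 libraries, 12 held 1 library far from the others for a gene, by a test of the gap at the end of the range. Chance flags about 1 group in 20, but that rate does not hold for genes named after their values were seen, which gave 7 of the 12, in 32 groups. The other 5 were in the 88 groups of genes named by the rule. Of the 12, 6 were in the library labelled albino TA 1, 2 in albino CN6 1 and 4 in C57BL/6 libraries.

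In albino TA 1 the genes were those of choroid plexus and cerebellum. Ttr was at 7700 CPM, Enpp2 at 4857 CPM, Kl at 304 CPM and Folr1 at 50.1 CPM, and the other 3 albino libraries had at most 23.4, 557, 5.0 and 0.817 CPM. Gabra6 was at 10.1 CPM and Cbln3 at 26.3 CPM, against at most 1.5 and 4.89 CPM.

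In albino CN6 1, Slc6a3 was at 5.93 CPM, against at most 0.749 CPM in the other albino libraries, and Tcf7l2 was at 72.5 CPM, against at most 13.4 CPM. In C57BL/6 CN6 1, Btaf1 (33.5 CPM), Gad1 (292 CPM) and Klhl14 (6.81 CPM) were below the other C57BL/6 libraries, whose lowest values were 37.9, 366 and 8.18 CPM. In C57BL/6 CN6 2, Slc6a5 was at 121 CPM, and the other C57BL/6 libraries had at least 149 CPM.

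For 5 genes the genotype difference itself differed between the abducens and oculomotor libraries in edgeR's interaction test. The abducens minus oculomotor values were -4.13 for Chat, -5.35 for Slc18a3, -3.38 for Slc5a7, -3.40 for Cartpt and -1.47 for Klhl14. Chat was at most 0.717 CPM in C57BL/6 CN3 and at least 6.86 CPM in the albino oculomotor libraries.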

How the results depend on the processing

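The count of 19 called genes was 17 to 25 with DESeq2 or upper quartile factors, with other filters, or with all 16 brainstem libraries in 1 fit. It was 189 of 15824 genes with DESeq2's Wald test (130 higher and 59 lower). With limma voom and quality weights it was 34 of 15879 (24 higher and 10 lower), and both tools held all 19. Among genes named in the text without an edgeR call, those called by DESeq2 included Dbh, Cyb561, Tph2, Fev, Gch1, Gabre, Pax7, En2, Lmx1a and Phox2a. They also included Fgfbp3, Ppp1r17, Myh4, Atp2a1, Tnnt3, Ddx3y, Nr1d2, Nr4a3, Cldn11 and Mobp. Leaving out 1 library gave 6 to 35. With only the 2 libraries labelled albino CN6 that meet the marker rule it was 4, and with only the 2 labelled albino TA it was 12. With the 4 libraries labelled albino CN6, of which 2 hold muscle RNA, it was 0 (2659 genes at an unadjusted p under 0.05), and Chat (-0.48), Slc5a7 (-0.41), Glra2 (-0.06), Myh4 (13.83) and Nr1d2 (0.02) changed sign.

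With the replicate number as a block, 3 genes were called. Deviations of same-numbered libraries had correlations of -0.29 to 0.05, and not every library correlated best with its own number. These values cannot decide whether the numbers pair the libraries. The numbers of the albino libraries with a TA label come from labels whose tissue the markers contradict. Some C57BL/6 libraries also had no albino library of the same number.

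The interaction count of 5 was 24 with DESeq2, 1 with limma voom, 4 or 5 with other factors or filters, 4 with the replicate block and 4 to 7 with 1 library left out. A low gene such as Crb1, at under 1 CPM in C57BL/6, rests on few reads. Intervals between animals cannot be given, since the labels do not tie libraries to animals.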

Other observations

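The clock genes Dbp, Per1 and Arntl split the C57BL/6 libraries into pairs, and Dbp and Per1 were named outside the rule for genes. Dbp, an output gene of the circadian clock, was at 30.5 and 28.9 CPM in C57BL/6 CN6 1 and 2, at 10.5 and 11.1 CPM in C57BL/6 CN6 3 and 4, and at 12.3 to 16.6 CPM in the albino set. Per1, a repressor of the clock, was at 56.0 and 54.8 CPM in the first 2 and at 30.8 and 28.8 CPM in the others, with 30.3 to 40.1 CPM in the albino set. Arntl, an activator of the clock, ran the other way, at 15.2 and 17.2 CPM against 23.5 and 24.7 CPM. Of 19 clock genes, 0 were called between the genotypes by edgeR, 3 had an unadjusted p under 0.05, and DESeq2 called 1, Nr1d2. Nr1d2 was at 197, 223, 181 and 194 CPM in C57BL/6 CN6 1 to 4, without a clear gap between the pairs. The labels give no time of collection, and a test of this split was not made.

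Genes of activity and of the cell's basic machinery gave 0 calls by edgeR. Their counts at an unadjusted p under 0.05 stand beside 12.8% of all genes tested, or 13.2% without albino TA 1. Of 15 tested immediate early genes, 14 had a positive difference, with a median of 0.16 and 5 at an unadjusted p under 0.05. Nr4a3, a nuclear receptor induced by activity, was at 5.69, 6.19, 3.18 and 3.14 CPM in C57BL/6 and at 10.8, 7.74, 7.93 and 12.4 CPM in albino CN6 1, CN6 2, TA 1 and TA 2 (1.08, SE 0.25, edgeR adjusted p = 0.20), and DESeq2 and limma voom called it. Fos was at 10.7 to 13.2 CPM in C57BL/6 and 6.97 to 19.2 CPM in the albino set. Of 82 respiratory chain genes tested, 64 had a negative difference (median -0.07, 12 at an unadjusted p under 0.05), and of 72 cytosolic ribosomal protein genes, 63 had a positive one (median 0.07, 11 at an unadjusted p under 0.05). Without albino TA 1 the respiratory chain count was 7 of 82. All 12 tested genes of the glucocorticoid response had a negative difference, with a median of -0.26 and 2 at an unadjusted p under 0.05, or 7 without albino TA 1. Ion channels of fast-firing neurons had a median of -0.15 over 18 genes, with 0 called and 5 at an unadjusted p under 0.05, and a median of -0.07 without albino CN6 1.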
